A study of Mus musculus with 4 samples.

Results

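The 10 mouse genes for the pore-forming alpha-1 subunits of voltage-gated calcium channels were examined for binding of CTCF in hippocampus. Members were taken by gene name: Cacna1s, Cacna1c, Cacna1d and Cacna1f encode L-type channels, Cacna1a, Cacna1b and Cacna1e encode the P/Q-, N- and R-type channels, and Cacna1g, Cacna1h and Cacna1i encode T-type channels. A CTCF peak was assigned to a member when its summit lay in the gene body or within 10 kb of it on the mm10 genome. By this rule 128 of the 90278 peaks in the between-replicate list belonged to the family, at 9 of its 10 genes. The background was 81% of protein-coding genes with a peak placed by the same rule, 17619 of 21755.

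The series holds CTCF chromatin immunoprecipitation with sequencing from hippocampal tissue of adult male B6CASTF1/J mice aged 2 months, which are hybrids of C57BL/6J and CAST/EiJ parents. All 4 libraries are CTCF libraries of untreated tissue and no group was treated or mutated. They form 2 biological replicates with 2 technical libraries each, and each replicate is a pool of 7 biosamples. Both pools carry the same donor entry in the labels, so the spread between them may hold little biological variation. Both technical libraries of a replicate went into a single alignment. This leaves 1 value per replicate and peak, so both replicate values are given for each peak described in full and no test was run. Peak strength is given as the caller's own signal value, whose scale the labels do not state. Read depth per library is unknown from these files, so no counting error can be attached to a peak. A list of CTCF peaks holds no expression values, so the tissue label was not checked against marker genes, and the hippocampus contains many cell types in which occupancy cannot be told apart.

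Alpha-1 subunits form the calcium-selective pore and carry the voltage sensor of the channel, while the beta, alpha-2/delta and gamma proteins are accessory. L-type channels couple depolarisation to contraction and to gene expression, P/Q-, N- and R-type channels supply the calcium that triggers transmitter release at synapses, and T-type channels open near the resting potential and shape burst firing. CTCF is a zinc-finger DNA-binding protein that stalls loop extrusion by cohesin, and the direction of its motif sets which side of a site can anchor a loop.

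The sequences below come from the strongest peak of each member among those matching the CTCF consensus with at most 1 mismatch. Sites chosen in this way cannot have more than 1 mismatch. Over the family 60 of the 128 member peaks had no such match. In the lines that follow the capitals mark the best 12-letter match to that consensus, read on the strand given, in mm10 coordinates. The letters come from the C57BL/6J reference genome and not from the hybrid mice.
Cacna1s, chr1:136045953-136045994, plus strand: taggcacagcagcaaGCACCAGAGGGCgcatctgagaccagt
Cacna1c, chr6:118923044-118923085, plus strand: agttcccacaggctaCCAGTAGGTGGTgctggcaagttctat
Cacna1d, chr14:30460036-30460077, minus strand: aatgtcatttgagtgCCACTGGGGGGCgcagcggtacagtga
Cacna1a, chr8:84554455-84554496, minus strand: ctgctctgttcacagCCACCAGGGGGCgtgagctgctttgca
Cacna1b, chr2:24755476-24755517, minus strand: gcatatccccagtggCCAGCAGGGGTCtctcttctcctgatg
Cacna1e, chr1:154729749-154729790, minus strand: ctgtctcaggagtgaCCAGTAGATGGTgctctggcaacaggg
Cacna1g, chr11:94404870-94404911, minus strand: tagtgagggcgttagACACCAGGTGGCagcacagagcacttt
Cacna1h, chr17:25397994-25398035, plus strand: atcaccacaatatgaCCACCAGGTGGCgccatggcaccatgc
Cacna1i, chr15:80340538-80340579, plus strand: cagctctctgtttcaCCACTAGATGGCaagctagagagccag
The Cacna1a, Cacna1h and Cacna1i sites match the consensus at every position, and the other 6 have 1 mismatch. The Cacna1a line shows its second strongest peak, since the best word under its strongest peak has 2 mismatches:
Cacna1a strongest peak, chr8:84592173-84592214, plus strand: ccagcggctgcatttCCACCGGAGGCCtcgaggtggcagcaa

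Peak numbers in the between-replicate list ranged from 32 at Cacna1a to 0 at Cacna1f. Cacna1a had 26 summits in the replicate 1 list, 21 in the replicate 2 list, where Cacna1c had 22, and 24 in the pooled-read list. The 4 L-type genes held 51 summits, or 4.13 per 100 kb of gene and flanks combined. The P/Q-, N- and R-type genes held 61, or 6.32 per 100 kb, and the T-type genes held 16, or 5.40 per 100 kb. Of those 61 summits Cacna1a held 32, and Cacna1b and Cacna1e had only 3.90 and 4.28 per 100 kb. L-type densities ran from 0 at Cacna1f to 9.19 at Cacna1s. The median over the 10 members was 4.77 summits per 100 kb, against 6.004 over all protein-coding genes and 5.59 over the 7880 protein-coding genes between 28114 and 609179 bp, the shortest and longest members. The member median lay inside the interquartile range of those genes of like length, 3.07 to 8.66. A closer match used genes within 1.25 times each member's own length. Cacna1s had 9.19 summits per 100 kb against a median of 5.92 in such genes. Cacna1c had 3.18 against 2.49 and Cacna1d 4.88 against 2.69. Of their matched genes 385 of 1677, 43 of 133 and 42 of 241 were denser, in that order. By the same comparison Cacna1a and Cacna1e lay above their medians, Cacna1b, Cacna1f and Cacna1g below, and Cacna1h and Cacna1i close to them. Introns held 108 of the 128 summits (84.4%), while 7 were upstream, 5 downstream, 4 within 1 kb of a transcription start and 4 in coding exons. Peaks were assigned by lying in or near these genes, and intron and exon shares over other genes are not given. The counts by place therefore do not set the family apart.

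**Figure D1:**
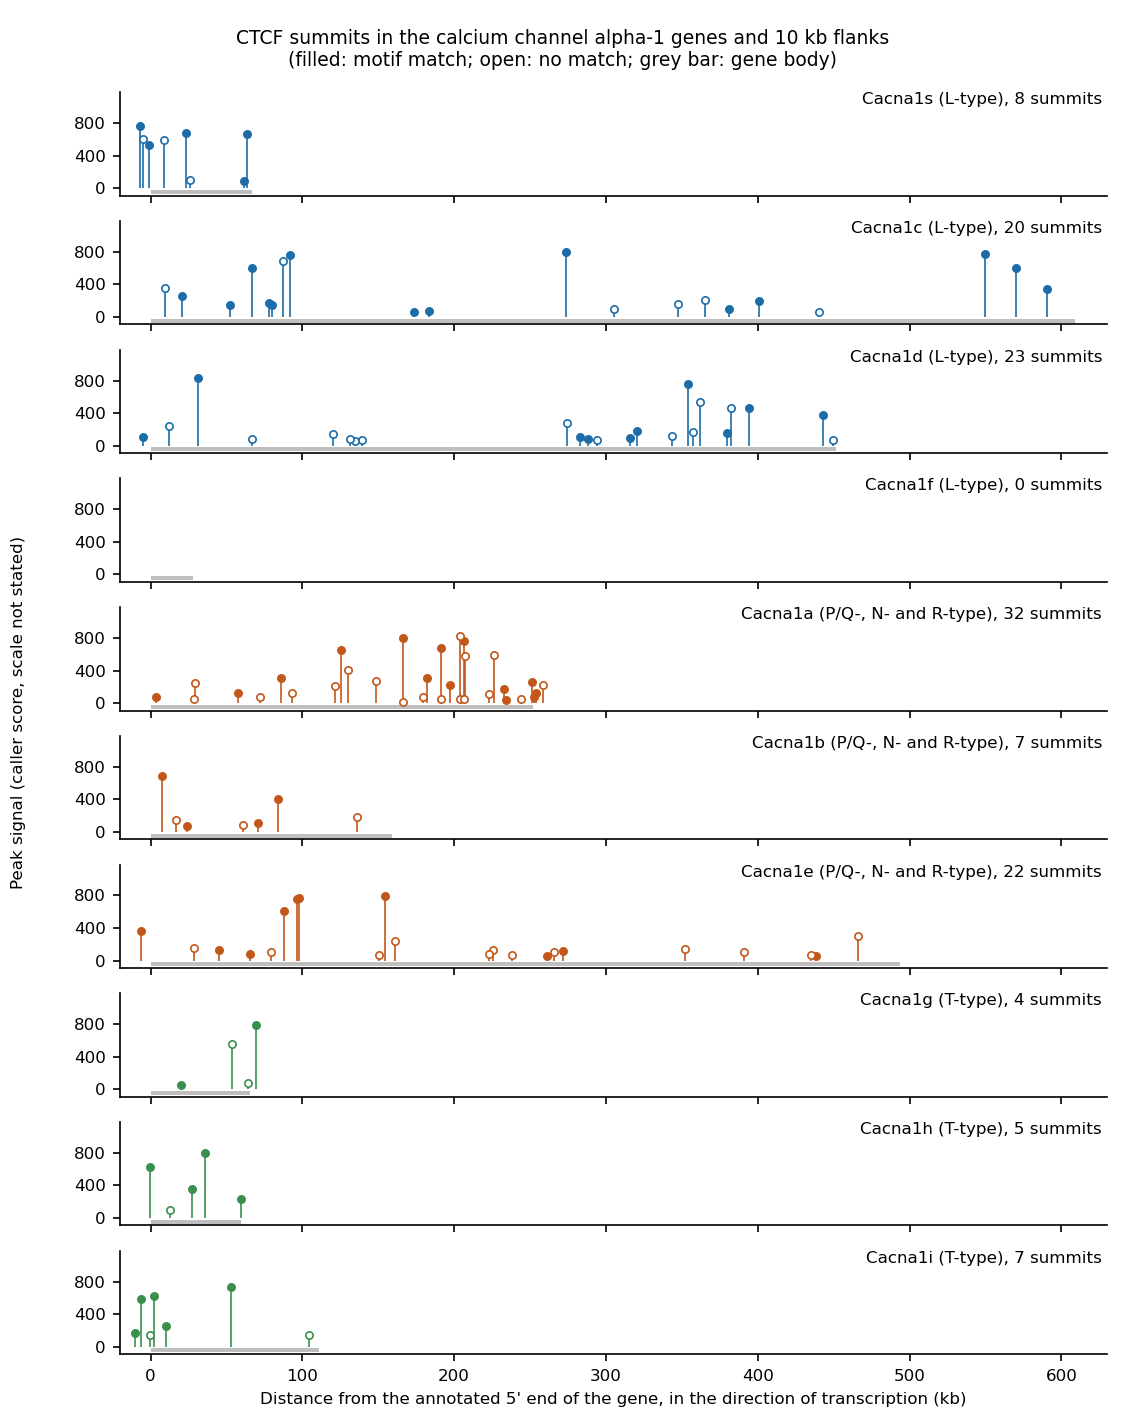
CTCF summits along the 10 alpha-1 genes: the horizontal axis is the distance from the annotated 5′ end in kb in the direction of transcription, and the height of each line is the peak signal. Filled points have a CTCF motif match within 50 bp of the summit and open points have none; Cacna1a carries 32 summits over 251807 bp and the Cacna1f panel is empty.

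Among the L-type genes, Cacna1s encodes the subunit of the skeletal muscle channel that works as the voltage sensor for contraction. It lies on chr1:136052750-136119822, plus strand, and held 8 summits, 5 in the body and 3 upstream. Its peaks were strong: 6 of 8 had a signal over 500, and its median of 597 was the highest of the 9 members with peaks. The strongest peak, at chr1:136045683-136046276 and 6781 bp upstream of the gene, had a signal of 772 with 386 in replicate 1 and 389 in replicate 2. A second upstream summit, 5130 bp before the gene, had 601, with 299 in replicate 1 and 303 in replicate 2. Upstream summit 136051653 had 537 and lay 849 bp from a start of Ascl5, a neighbouring basic helix-loop-helix transcription factor gene. Inside the gene 674.6 was reached in intron 7, 665 in intron 40 and 594 in intron 2, whereas introns 9 and 38 had 103 and 84.8. All 8 summits were found within 100 bp of a summit in the replicate 1 list, the replicate 2 list and the pooled-read list.

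Cacna1c encodes the principal L-type subunit of heart, smooth muscle and brain. It is the longest member, 609179 bp on chr6:118587240-119196418, minus strand, and all of its 20 summits lay in the body. Its strongest peak, chr6:118922790-118923335, had a signal of 793 with 389 in replicate 1 and 406 in replicate 2, in an intron of 272276 bp that held 8 summits in all. The other 7 summits of that intron had signals between 63.0 and 212, so the intron held a single strong site. The remaining strong sites stood towards the gene's ends: 770 in intron 30, 761 in intron 1, 689 beside an internal start, 607 at summit 119129836 and 606 in intron 33. The longest stretch of the body without a summit was 109132 bp. Exact copies of the consensus stood under 3 Cacna1c peaks whose signals were 761, 606 and 79.7, the last of them in a repeat. Summit 119175556, with a signal of 261, was 268 bp from a start of Dcp1b, an mRNA decapping gene that runs in the opposite direction across the 5′ end of Cacna1c.

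Cacna1d encodes an L-type subunit that opens at lower voltages and serves pacemaking in the heart and transmission in cochlear hair cells. It covers 451517 bp of chr14:30039939-30491455, minus strand, and held 23 summits, 22 in the body and 1 upstream. Peak chr14:30459780-30460303 was the strongest of the whole family, with a signal of 837, 408 in replicate 1 and 433 in replicate 2. In contrast to Cacna1s only 3 of 23 signals exceeded 500, and the gene's median was 140. The summits formed a 3′ group: 15 of the 22 in the body lay beyond its midpoint, and the longest empty stretch was 134788 bp. That 3′ group held signals of 759 in intron 9, 536 in intron 11, 464 in intron 28, 460 in intron 21 and 374 in intron 45. Such a lean was not shared by the family. Over all members 54 body summits lay before the midpoint and 60 beyond it. The share before it was 47.4%, against 51.1% in genes of like length. Cacna1a and Cacna1g also had more summits beyond the midpoint, while every other member with body summits had more before it, as with 13 and 8 at Cacna1e. Summit 30479563, signal 249, was 49 bp from a start of Dcp1a, the paralogue of Dcp1b, which also runs opposite to its calcium channel gene.

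Cacna1f encodes the L-type subunit of photoreceptor synapses in the retina. It is the shortest member, 28114 bp on chrX:7607083-7635196, plus strand, and was the member with no peak in any of the 4 thresholded lists. The nearest summit was 38402 bp from its transcription starts. The ranked list held 2 weak candidates there. Candidate summit 7605447 had a signal of 27.2, with 11.4 in replicate 1 and 17.3 in replicate 2, and summit 7634347 had 22.9, with 9.13 in replicate 1 and 13.4 in replicate 2. Both had an irreproducible discovery rate (IDR) of 0.57, far above the 0.05 at which the authors' list stops. Of 2597 protein-coding genes whose length was within 1.25 times that of Cacna1f, 2301 had a higher density and the median was 6.96 summits per 100 kb.

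Cacna1a, the P/Q-type subunit of most central synapses, had the highest summit density of the family in the between-replicate list. Its 32 summits over chr8:84388440-84640246, plus strand, and its flanks gave 11.8 per 100 kb. In that list 4 of the 461 protein-coding genes of like length were denser, and the median of those genes was 4.11. The lead over Cacna1s depended on the list: Cacna1a had 9.57 per 100 kb in the replicate 1 list, 7.73 in the replicate 2 list and 8.83 in the pooled-read list, below the 10.3, 10.3 and 9.19 of Cacna1s in the same lists. In 4 places 2 overlapping peaks were called at neighbouring summits, and with each pair reduced to its stronger peak Cacna1a kept 28 peaks or 10.3 per 100 kb. Signals over 500 were found at 7 Cacna1a summits. The strongest, chr8:84591931-84592435 in intron 30, had 825 with 407 in replicate 1 and 421 in replicate 2. Summit 84554477 in intron 17 had 801, with 406 in replicate 1 and 400 in replicate 2, and summit 84594602 in intron 31 had 767, with 363 in replicate 1 and 404 in replicate 2. Beyond the midpoint of the gene lay 20 of the 29 body summits, among them the weaker peak of all 4 overlapping pairs. Introns in this region were short: the one of 493 bp numbered 25 held a peak of 674 and its weaker overlapping neighbour. No gap between body summits exceeded 28270 bp, although the body is 251807 bp long.

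Cacna1b, the N-type subunit of presynaptic terminals, was sparser. On chr2:24603887-24763152, minus strand, it held 7 summits or 3.90 per 100 kb, and 473 of 822 genes of like length were denser. A single signal exceeded 500: peak chr2:24755251-24755704 in intron 3, with 691, had 332 in replicate 1 and 363 in replicate 2. The next strongest, 405, lay in a coding exon. The other 5 signals ran from 68.9 to 182.

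Cacna1e, the R-type subunit, held 22 summits on chr1:154390731-154884501, minus strand, with 21 in the body and 1 upstream. The density was 4.28 per 100 kb, and 52 of 215 genes of like length were denser. Its 4 strong sites all lay in the 5′ part of the gene. Peak chr1:154729530-154729985 had 794 with 394 in replicate 1 and 403 in replicate 2. Summits 154786422 and 154788246, less than 2 kb apart, had 765 and 758, and summit 154796885 had 609. Downstream of these no body summit exceeded 304, the value in intron 38, and introns 3, 6 and 7 together held 8 summits with signals from 55.0 to 144.

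The T-type genes, 59499 to 111042 bp long, held 16 summits with a median signal of 305, against 180 in the L-type and 135 in the P/Q-, N- and R-type genes. Cacna1g encodes the main T-type subunit of thalamic relay cells and lies on chr11:94408391-94474198, minus strand. It held 4 summits. The strongest was downstream of the gene, chr11:94404639-94405165, with 788, and had 382 in replicate 1 and 408 in replicate 2. Intron 26 held a peak of 555, with 273 in replicate 1 and 284 in replicate 2, and the remaining 2 had 79.4 and 49.5. No summit lay closer than 12047 bp to a Cacna1g start, the longest such distance apart from that of Cacna1f.

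Cacna1h, a T-type subunit of sensory neurons and adrenal cells, held 5 summits on chr17:25374285-25433783, minus strand. Intron 2 carried 3 of them, and the strongest, chr17:25397747-25398257, had 804 with 401 in replicate 1 and 409 in replicate 2. Cacna1i, the T-type subunit of the thalamic reticular nucleus, held 7 summits on chr15:80287238-80398279, plus strand. Its strongest peak, chr15:80340307-80340800 in intron 5, had 729 with 350 in replicate 1 and 379 in replicate 2. Around the start of Cacna1i a group of 5 summits spanned from 9976 bp upstream to 10115 bp downstream, with signals of 171, 580, 148, 623 and 260 in that order. Densities were 4.66 at Cacna1g, 6.29 at Cacna1h and 5.34 summits per 100 kb at Cacna1i, against medians of 5.92, 6.09 and 5.34 in genes of like length.

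**Figure D2:**
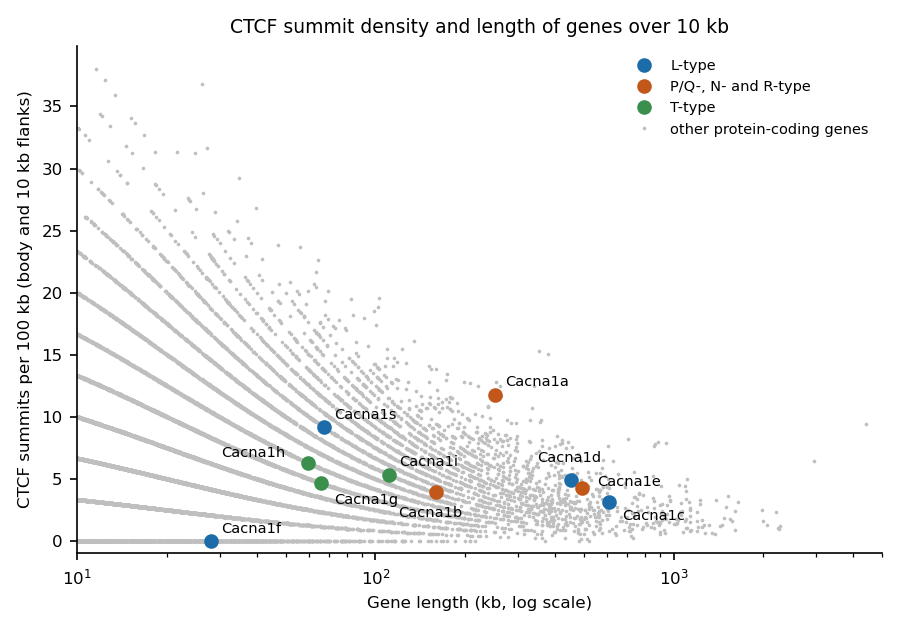
CTCF summits per 100 kb of gene body and 10 kb flanks (vertical axis) against gene length in kb on a log scale (horizontal axis), with the 10 members coloured by channel type and other protein-coding genes over 10 kb in grey. Cacna1a, at 11.8 in the between-replicate list plotted here, stands above nearly all genes of its length, and Cacna1f lies at 0.

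Promoter occupancy was found at 4 of the 10 members, against a background of 38% of protein-coding genes and 48.2% of those of like length (3796 of 7880) with a summit within 1 kb of an annotated start. With 10 genes a share of this size is close to both. L-type genes contributed 2 of 4, T-type genes 2 of 3 and the P/Q-, N- and R-type genes 0 of 3. The Cacna1h peak stood 284 bp upstream of its only annotated start. Its signal was 625, with 293 in replicate 1 and 333 in replicate 2, and the word under the peak differs from the consensus at 1 position:
Cacna1h promoter, chr17:25434057-25434098, plus strand: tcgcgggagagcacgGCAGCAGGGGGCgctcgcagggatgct

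At Cacna1i the summit was 7 bp upstream of the only annotated start, with a lower signal of 148, 76.7 in replicate 1 and 71.6 in replicate 2. No motif match lay within 50 bp of it. The 300-base promoter window of the RefSeq table (GRCm38.p6) for Cacna1i was 62.7% G and C and held 23 CpG dinucleotides. Of the 10 windows that this table holds for 7 members, it was the one with a summit inside. Its 100 bases before the start are given with the 11 bases centred on the summit in capitals:
Cacna1i promoter, chr15:80287138-80287237, plus strand: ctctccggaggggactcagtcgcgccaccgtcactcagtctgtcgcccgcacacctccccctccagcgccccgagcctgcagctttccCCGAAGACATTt

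The other 2 promoter summits belonged to internal starts. At Cacna1c, summit 119109326 with a signal of 689 lay 753 bp upstream of 1 of 10 annotated starts, one placed 87845 bp into the gene. It had 339 in replicate 1 and 351 in replicate 2. At Cacna1d, summit 30352165 lay 826 bp downstream of a start shared by 3 transcripts, 138464 bp into the gene. Its signal was only 68.5, with 29.4 in replicate 1 and 39.9 in replicate 2, and no summit within 100 bp was present in the pooled-read list or in either replicate list. Over all members the median distance from the starts of a gene to the closest summit was 1458 bp, against 2675 bp over protein-coding genes and 1159 bp over those of like length.

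Coding exons held 4 summits. In Cacna1a, summit 84614757 had 597 with 305 in replicate 1 and 292 in replicate 2, in a segment that also lies within Gm16183, an antisense RNA gene. Another Cacna1a exon near the 3′ end, at summit 84639394, had 261 with 131 in replicate 1 and 132 in replicate 2. The Cacna1b exon at summit 24679449 had 405 with 204 in replicate 1 and 201 in replicate 2. The Cacna1d exon at summit 30042085 had 71.4 with 35.1 in replicate 1 and 36.2 in replicate 2, and it was absent from the other 3 lists. A motif match was present at the second Cacna1a exon and at the Cacna1b exon.

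Member peaks resembled the rest of the list in strength. The median signal was 170 over the 128 member peaks and 165 over the other 90150, with interquartile ranges of 84.8 to 542 and 85.3 to 464. Signals over 500 made up 26.6% of member peaks (34) and 23.2% of the others, and 11.7% (15) of member peaks were in the top decile of the whole list. The medians by gene, from highest to lowest, were 597 at Cacna1s, 351 at Cacna1h, 317 at Cacna1g, 260 at Cacna1i, 202 at Cacna1c, 187 at Cacna1a, 145 at Cacna1b, 140 at Cacna1d and 127 at Cacna1e. In each of these 9 genes the signals of single peaks spread more widely than the medians of neighbouring genes in that order differed. Maxima were much more alike, from 691 at Cacna1b to 837 at Cacna1d.

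A match to the 12-letter CTCF consensus with at most 1 mismatch, searched on both strands within 50 bp of the summit, was found under 68 member peaks. This is 53.1% of them, with an exact 95% binomial interval of 44.1% to 62.0% that covers counting error only, against 50.3% of all peaks. In windows of the same size 1 kb away a match stood beside 1 member peak (0.781%) and 1.25% of the others. By channel type the shares were 56.9% in the L-type genes, 45.9% in the P/Q-, N- and R-type genes and 68.8% in the T-type genes. A match describes letters in the reference genome and does not show that the word itself was bound.

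Signal followed the closeness of the match. Member peaks with an exact word had a median signal of 609, those with 1 mismatch 236 and those with no match 129, against 606, 185 and 126 in the rest of the list. Exact words were found under 15 member peaks and took 9 different forms. The same word could carry different signals: CCACCAGGTGGC stood under the strongest Cacna1h peak with 804 and under a Cacna1d peak with 105, and CCAGTAGAGGGC stood under a Cacna1a peak with 312 and a Cacna1c peak with 79.7. CCAGCAGGGGGC was found under 3 peaks, with 767 and 219 in Cacna1a and 665 in Cacna1s. The reverse also occurred, since the strongest Cacna1a peak had 2 mismatches and 8 of the 34 member peaks over 500 had no match. With overlapping peaks reduced to the strongest, 76.5% of member peaks over 500 had a match, against 69.3% of the other peaks over 500.

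**Figure D3:**
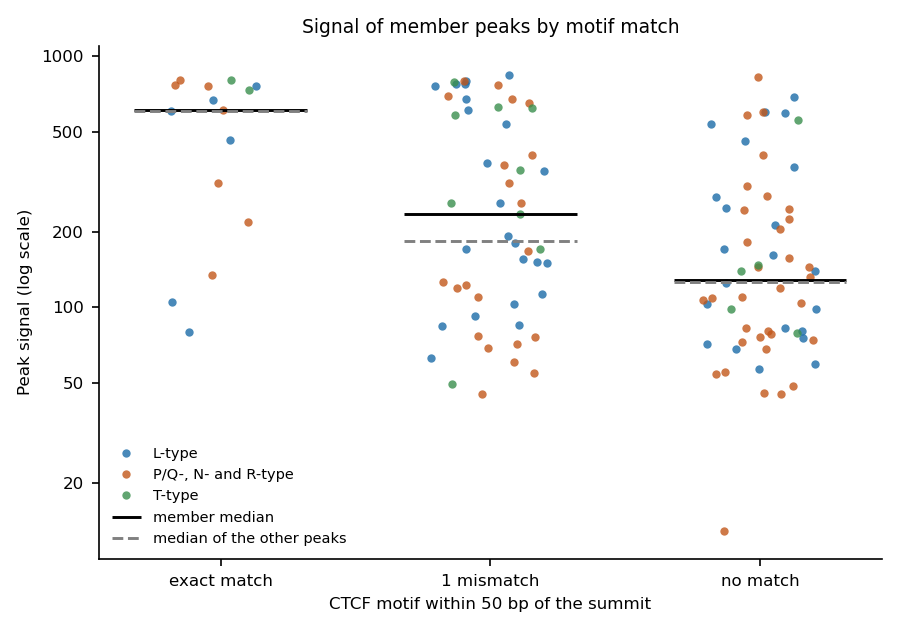
Signal of each of the 128 member peaks on a log axis, grouped by the best CTCF word within 50 bp of the summit and coloured by channel type. Solid lines are member medians (609, 236 and 129 for exact, 1 mismatch and no match) and dashed lines are medians of the other peaks; horizontal scatter within a group has no meaning.

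Motifs pointed both ways along the genes. Of 66 member peaks with a match on a single strand, 29 had it on the strand of the gene and 37 on the opposite strand, so 43.9% ran with transcription (exact 95% interval 31.7% to 56.7%). Cacna1e had 2 motifs with the gene and 8 against it, Cacna1a had 4 and 9, and Cacna1c had 5 and 9. Cacna1i had 4 with and 1 against, and both of those at Cacna1g ran with the gene. Of 57 pairs of adjacent oriented sites within a gene, 31 pointed the same way. In 13 pairs the sites pointed towards each other and in 13 away from each other. Pairs of these last kinds must alternate along a gene, so their numbers stay close whatever the sites.

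Repeats annotated by soft-masking of the genome contained 27 member summits (21.1%), against 30.3% of the others. Repeat summits at members had a motif in 77.8% of cases and a median signal of 126. Those outside repeats had a motif in 46.5% and a median of 219. In the rest of the list the median signals were close to these, 114 in repeats and 222 outside. Motif shares in and outside repeats are given for members only. Signals over 500 in a repeat were found at 2 member peaks, 674.6 in intron 7 of Cacna1s and 580 upstream of Cacna1i. The median share of G and C around the summit was 52.5% at members and 49.5% at the other peaks, and the median peak width was 440 bp in both.

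The between-replicate list keeps peaks by how well their ranks match in these same replicates, so the closeness of the replicate signals is in part set by that filter. Replicate 1 was higher at 33 of the 128 member peaks and at 25259 of the other 90150. After overlapping peaks were reduced to the strongest, 124 member peaks remained. Replicate 1 was higher at 31 of them and replicate 2 at 93, and the median log2 ratio of replicate 1 over replicate 2 was -0.10, against -0.09 over the rest of the list. The ratios ran from -0.66 to 0.49 with an SD over peaks of 0.21, also 0.21 in the rest. Spread narrowed with signal: the SD was 0.08 for the 34 peaks over 500, 0.23 for the 58 between 100 and 500 and 0.26 for the 32 under 100. Outside the family the values in these 3 classes were 0.08, 0.23 and 0.25.

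The lowest ratios were all at Cacna1e. Summit 154839118 had 52.8 in replicate 1 and 83.2 in replicate 2, a log2 ratio of -0.66. Summit 154532215 had 55.1 in replicate 1 and 85.1 in replicate 2, a log2 ratio of -0.63, and summit 154805153 had 42.2 in replicate 1 and 60.4 in replicate 2, a log2 ratio of -0.52. The highest came from 3 genes. Cacna1g summit 94410104 had 46.7 in replicate 1 and 33.1 in replicate 2 (0.49), Cacna1a summit 84611408 had 60.1 in replicate 1 and 45.2 in replicate 2 (0.41), and Cacna1d summit 30360189 had 43.7 in replicate 1 and 33.9 in replicate 2 (0.37). None of the 6 had a signal over 144.5, so the largest differences between pools stood at modest peaks.

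**Figure D4:**
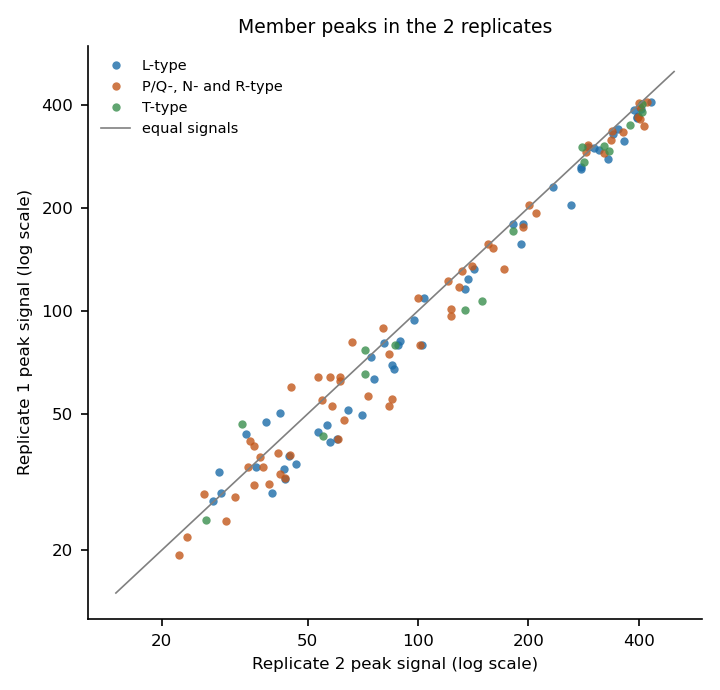
Replicate 1 signal (vertical axis) against replicate 2 signal (horizontal axis), both log scales, for the 124 member peaks left after overlaps were reduced, coloured by channel type. The grey line marks equal signals; 93 points lie below it, where replicate 2 is higher, and the strongest peaks lie closest to it.

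Ratios outside this range were found at 3 of the 4 weaker peaks of the overlapping Cacna1a pairs, and at 3 of the 4 a replicate value was shared with the stronger neighbour. Summit 84594806 had a signal of 48.9 but was assigned 8.77 in replicate 1 and 404 in replicate 2, and the 404 is the value of summit 84594602. Summit 84592398, signal 45.7, was assigned 24.9 in replicate 1 and 421 in replicate 2, again the neighbour's value. The other weaker peaks had signals of 54.3 and 12.95. Summit 84580016, with 54.3, had 39.4 in replicate 1 and 21.4 in replicate 2, a log2 ratio of 0.88. Summit 84554681, with 12.95 the weakest of all member peaks, was assigned 406 in replicate 1 and 400 in replicate 2, which are the values of summit 84554477.

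Among member peaks the strong ones were also those that recurred across lists. These lists all come from the same replicates. No recurrence is given for the rest of the list, so the counts below do not set the family apart. Both replicate lists and the list from pooled reads contained a summit no more than 100 bp away for all 34 member peaks over 500, for 52 of the 58 between 100 and 500 and for 8 of the 32 under 100. Ranked candidates at the members numbered 338, of which 128 passed the IDR of 0.05 and 210 did not. Signals of those that failed had a median of 27.1 and a maximum of 79.3, so the range of passed and failed candidates overlapped. The last one inside was Cacna1a summit 84622472, signal 45.1, with 19.4 in replicate 1, 22.3 in replicate 2 and an IDR of 0.0472. The first one outside was Cacna1c summit 119131875, signal 41.4, with 20.8 in replicate 1, 20.1 in replicate 2 and an IDR of 0.0788. At Cacna1c 55 of 75 candidates failed, the largest number, and at Cacna1s 8 of 16. No share over the whole ranked list is given beside these counts of passed and failed candidates, so they do not set the family apart.

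The accessory subunits of the same channels were described for comparison, as 16 genes of the alpha-2/delta, beta and gamma families. Of these 15 had at least 1 summit, against 81% of all protein-coding genes. The counts added over the genes came to 125, where a summit in overlapping flanks of neighbouring genes would count for each. The median density was 5.01 per 100 kb, beside 4.77 for the alpha-1 genes, with no matching by gene length. Counts ran from 23 at Cacna2d3 to 0 at Cacng1, the gamma subunit of skeletal muscle. A promoter summit was present at 4 of the 16, against 38% of all protein-coding genes. The signals were 848 at Cacnb3, up to 224 at Cacnb2, 177 at Cacna2d3 and 66.5 at Cacnb1. The highest signals of the group, 870 at Cacna2d2, 848 at Cacnb3 and 844 at Cacna2d4, were above the alpha-1 maximum of 837. Cacnb1, a beta subunit gene of 21527 bp, had 13 summits within its short body and flanks, or 31.3 per 100 kb.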

How the data were processed

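CTCF peaks were deposited by the authors in ranked and thresholded form. Separate lists exist for each replicate, for pooled reads and for the comparison of both replicates. Per the labels the genome build is mm10. Names of the aligner, peak caller and control were not given in the sources used here. Each deposited peak signal is on a scale that is not stated. The deposited IDR score and the deposited −log10 of the IDR set the authors' threshold of 0.05. The lists carry no read counts, so depth is unknown.

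Summits were placed on GENCODE M21 basic genes of chromosomes 1 to 19 and X with Python 3.11.15, numpy 2.4.6, pandas 2.3.3 and scipy 1.17.1, and figures were drawn with matplotlib 3.10.9. The motif search and overlap reduction were tested on simulated data. At all 128 member peaks the first input peak of the between-replicate list had the same coordinates and signal as a peak of the replicate 1 ranked list, and at 127 the second input peak matched one of replicate 2. No match to the other replicate was found in either case. Groups follow the biological replicate number in the labels. No test was run, since there is no second group and there is 1 value per replicate. All 10 members are named. Peaks given in full are the strongest of each member, those at starts and in coding exons, the 3 lowest and 3 highest replicate ratios and those at the IDR threshold. Other peaks were named after their values were seen. Introns are numbered along 1 transcript per gene, and the sites 5′ of that transcript carry no number. The members, the list of accessory genes and the rules were chosen with earlier results of these data known. Alternatives changed the list, the IDR, flanks, promoter width, motif mismatches and window, and overlaps.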

Additional observations from a re-analysis of the deposited data

How the results depend on the processing

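Of 48 alternative values over 6 results, 37 stayed near the reported ones and 11 moved. Near meant within 1.5 times for counts, within the 95% interval for shares and within 1 SD for densities and ratios, with an SD of 0.144 for the density between replicate lists. Counts near by this measure still ran from 96 to 179 summits. The share of motifs on the gene strand, 43.9%, was 53.3% with no mismatch, or 8 of 15 peaks. This lies on the other side of an even split but inside the 95% interval of the reported share. The median density over members, 4.77 summits per 100 kb, was 4.16 at an IDR of 0.01, 3.66 in the pooled-read list and 3.76 to 3.97 with each replicate left out in turn. It was 4.48 without flanks and 5.29 with 50 kb flanks. Medians over other genes were not recomputed under these settings, so the difference from them is not known there. The number of members with a promoter summit, 4, was 2 within 500 bp, 7 within 5 kb and 2 where only the outermost 5′ end counted. It was 3 at an IDR of 0.01, in the pooled-read list and with each replicate left out in turn. It was 6 with the comprehensive annotation, which adds Cacna1s and Cacna1a and was chosen after seeing the data. Promoter shares over other genes were not recomputed for these alternatives. The share of member summits with a motif, 53.1%, was 11.7% with no mismatch and 73.4% with at most 2. With Cacna1a left out, also chosen after seeing the data, 96 summits were counted. Cacna1a had 26 summits in the replicate 1 list and 21 in the replicate 2 list, against 32 between replicates. No paired analysis was possible because no result comes from a test.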

Other observations

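Cacna1c and Cacna1d each overlap the start of a decapping gene that runs in the opposite direction, Dcp1b and Dcp1a, and both starts carried a CTCF summit. Neighbouring starts were listed only where a member summit lay within 1 kb of them, so the presence of both summits follows from that choice. Starts this near a summit were found at 38% of protein-coding genes. The Cacna1c summit beside Dcp1b had a signal of 261 with 124 in replicate 1 and 137 in replicate 2 and a motif match with 1 mismatch. The Cacna1d summit beside Dcp1a had 249, with 116 in replicate 1 and 135 in replicate 2, and no match. Both summits recurred within 100 bp in the 3 other lists.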
